A study of Homo sapiens with 6 samples.

Results

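The ZNF genes are the family of human genes whose symbols are ZNF followed by a number, most of which encode proteins with classical zinc fingers. The genes described here are the 206 whose symbol has this form and whose FPKM (a level scaled for gene length and library size) averaged at least 1.5 over all 6 libraries, with antisense, pseudogene and numbered copy rows left out. They were taken from 509 ZNF genes of this form and from 50550 rows of the count table, and 303 ZNF genes lay below that level. All 206 passed the filter on low counts, which they could hardly fail at this level, and the lowest count of any of them in a library was 103. The genes were chosen by their mean FPKM, so levels are given as a description with no test. The difference between the groups was not itself used to choose them. The mean takes in both groups, however, so a high level in either group could bring a gene in, as counted below. Only the difference between the groups is tested.

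A classical zinc finger is a short loop in which cysteines and histidines hold a zinc ion, and a row of such fingers lets a protein read a stretch of DNA base by base. Many ZNF proteins also carry a KRAB domain, which binds the corepressor TRIM28 and through it brings histone methylation and heterochromatin proteins to the bound site, often a transposable element. KRAB-ZNF genes arose by repeated duplication and lie in clusters, above all on chromosome 19. Other ZNF proteins have no KRAB domain and act as activators, RNA-binding proteins, ubiquitin or SUMO ligases or ribosome assembly factors.

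RNA was sequenced from U2OS, an established human osteosarcoma line, in 3 libraries titled Lv_LINC00673 and 3 titled Lv_NC. The genotype label of the first group is LINC00673, a long noncoding RNA gene, and the series title and design text describe its depletion, while the titles leave NC unexplained and the design text speaks of wildtype cells. The labels state no dose, no time, no clone and no separate cultures, so that p-values here measure the spread between libraries, which may be technical. Every fold change is Lv_LINC00673 over Lv_NC. Library totals ran from 61815841 to 87227980 counts and were lower in all 3 Lv_LINC00673 libraries. LINC00673 itself stood at 6.39 ± 0.159 TMM-normalized CPM (counts scaled to library size; SD, n = 3) against 8.50 ± 1.24 (SD, n = 3) and did not pass the test (log2 fold change -0.41, SE 0.16, edgeR adjusted p = 0.0924), so the groups are called by their library titles. Of the osteoblast markers SPARC and COL1A1 were abundant, at 124 to 149 and 30.1 to 44.7 FPKM, and SP7, COL1A2 and IBSP stayed at or under 0.0545 FPKM. All 5 blood markers were under 0.5 FPKM in every library. The summed FPKM of 5 mesenchymal markers was 1440.1 to 1593 in Lv_LINC00673 and 1101 to 1209 in Lv_NC. Most of it was VIM (mean 1377 against 998 FPKM), while CD44 (71.0 against 77.5), ENG (14.08 against 15.01) and THY1 (47.1 against 52.9) had lower means and NT5E was near 0. The sum was, for 4 epithelial markers, 2.42 to 2.56 and 1.93 to 2.02, and for 3 endothelial markers 0.852 to 1.11 and 0.565 to 0.768. The sums for the 9 osteoblast and the 3 neural markers overlapped between the groups. The part of these marker differences in the results below was not tested, and bulk RNA cannot tell fewer cells of a kind from less RNA per cell.

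The promoters of the ZNF genes carried some short motifs more often than promoters at large. RefSeq promoter windows of 300 bases (250 before to 50 after the start, GRCh38.p14) were matched for 176 of the 206 genes. The start is that of 1 RefSeq transcript, and for ZNF330 the table's window lies downstream of the outermost gene start given below (141220535). The 4 printed here belong to the genes with the highest and the lowest fold changes described below, ZNF638 and ZNF761 among those that rose and ZNF775 and ZNF330 among those that fell. Capitals mark 3 motifs searched on both strands, the ETS core CGGAAG (or CTTCCG), the SP1 box GGGCGG (or CCGCCC) and the NFY box CCAAT (or ATTGG). The windows, all on the plus strand, are chr2:71331532-71331831 for ZNF638, chr19:53431734-53432033 for ZNF761, chr7:150379080-150379379 for ZNF775 and chr4:141220645-141220944 for ZNF330.
ZNF638: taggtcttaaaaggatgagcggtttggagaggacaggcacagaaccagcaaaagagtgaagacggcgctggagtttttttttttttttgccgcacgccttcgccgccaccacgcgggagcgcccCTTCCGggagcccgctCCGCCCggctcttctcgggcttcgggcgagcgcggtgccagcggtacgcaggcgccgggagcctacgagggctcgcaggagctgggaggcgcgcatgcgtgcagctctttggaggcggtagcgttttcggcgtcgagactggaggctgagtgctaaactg
ZNF761: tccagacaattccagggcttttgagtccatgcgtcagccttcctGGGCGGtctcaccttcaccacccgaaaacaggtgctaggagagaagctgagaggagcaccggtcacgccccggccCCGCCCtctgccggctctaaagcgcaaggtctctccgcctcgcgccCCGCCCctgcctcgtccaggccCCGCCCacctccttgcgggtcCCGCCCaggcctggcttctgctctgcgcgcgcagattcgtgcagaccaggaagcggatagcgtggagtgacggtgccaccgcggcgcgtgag
ZNF775: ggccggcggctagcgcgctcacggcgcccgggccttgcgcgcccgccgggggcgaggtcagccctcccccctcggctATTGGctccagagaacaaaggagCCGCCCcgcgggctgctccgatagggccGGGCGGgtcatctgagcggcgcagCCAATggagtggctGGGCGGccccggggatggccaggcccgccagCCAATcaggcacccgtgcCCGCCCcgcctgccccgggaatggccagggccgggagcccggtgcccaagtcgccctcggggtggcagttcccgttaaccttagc
ZNF330: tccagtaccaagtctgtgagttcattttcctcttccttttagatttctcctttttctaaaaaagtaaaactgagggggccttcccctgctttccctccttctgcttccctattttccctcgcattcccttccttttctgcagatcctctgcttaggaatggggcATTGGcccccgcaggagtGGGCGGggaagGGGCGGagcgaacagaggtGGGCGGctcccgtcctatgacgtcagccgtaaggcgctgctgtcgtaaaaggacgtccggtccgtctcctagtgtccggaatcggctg
The ZNF638 window held 1 ETS and 1 SP1 match, that of ZNF761 held 5 SP1 matches, that of ZNF775 held 4 SP1 and 3 NFY matches, and that of ZNF330 held 3 SP1 and 1 NFY. A match is a string of letters and not a binding site.

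The ETS core was present in 56.3% of the 176 promoters, against 19.9% of all 27305 promoters in the table and 35.0% of 8183 coding genes tested at the same FPKM (median GC content of these windows 64%, 58.3% and 66%). The NFY box was present in 43.2%, against 35.7% and 36.9%. The SP1 box was present in 69.9%, against 44.6% and 72.9%, so beside expressed coding genes it was not more frequent. Among the ZNF promoters the ETS core and the NFY box were more frequent with a KRAB match in the protein (69.5% and 56.1% of 82) than without one (45.2% and 31.2% of 93). The ETS core and the SP1 box can overlap by sharing letters. By direction of change, the ETS core was in 48.8% of the 41 promoters of genes that rose and 31.6% of the 19 of genes that fell, both under the share over all 176. These shares are descriptions with no test.

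Most expressed ZNF genes were of low level. The median over the 206 genes was 3.72 FPKM, 82 genes lay under 3 FPKM and 48 at 10 FPKM or more. The highest mean was that of ZNF185, a LIM-domain protein of the actin cytoskeleton with no finger match in its sequence, at 58.6 FPKM. Next came ZNF593, a nuclear factor of ribosome assembly, at 57.9 FPKM, ZNF598, the ubiquitin ligase that senses collided ribosomes, at 56.0 FPKM, and ZNF622, which is shed from maturing large ribosomal subunits, at 51.4 FPKM. ZNF395 stood at 48.2 FPKM, ZNF787 at 41.0 FPKM, and ZNF428 and ZNF655 each at 37.3 FPKM. In single libraries ZNF185 was at 55.2, 53.7 and 55.3 FPKM in Lv_LINC00673 and at 62.2, 63.8 and 61.4 FPKM in Lv_NC, so that its groups did not overlap. Of these 8 genes only ZNF655 had a KRAB match. The level rose with GC content of the transcript (Spearman rho 0.55 across 205 genes, which share the same libraries). Just inside the level of 1.5 FPKM were ZNF318 at 1.52, ZNF283 at 1.53 and ZNF264 at 1.56 FPKM, and just outside were ZNF736 at 1.49, ZNF354B at 1.48 and ZNF83 at 1.47 FPKM. All 6 of these had a higher mean in Lv_LINC00673.

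The comparison of the groups asked which ZNF genes differed with the LINC00673 label. Of the 206 genes, 73 were called by edgeR, which here means an adjusted p under 0.05 in its quasi-likelihood test. Of these 48 were higher and 25 lower in Lv_LINC00673, and 133 genes did not pass. That is 35.4%, beside 26.8% of all 21933 genes tested and 35.6% of the 12336 genes at the same FPKM, so the share called was near that of equally expressed genes. In direction, 48 of 206 rose where 14.3% of all genes rose (14.3% at that FPKM too), and 25 fell where 12.5% of all genes fell (21.2% at that FPKM). The median log2 fold change was 0.03 over the 206 genes, 0.05 over all genes tested and -0.12 over those at the same FPKM. Changes ran from -0.83 to 1.71. By at least 2-fold, 18 ZNF genes rose and 0 fell, where 7.55% and 0.821% of all genes did. No ZNF gene lay below ZNF775 at a log2 fold change of -0.83, so this 0 is the same at an unadjusted p. Without overlap between any libraries of the 2 groups, 70 ZNF genes lay higher and 45 lower, where 45.1% of all genes and 53.8% of those at the same FPKM showed no overlap.

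The choice by mean level bears on these counts. All 30 ZNF genes that reached 1.5 FPKM in one group only did so in Lv_LINC00673. Over the 176 genes at 1.5 FPKM or more in both groups, 27 rose and 25 fell, and the median change was -0.07 on the log2 scale. Of these 176, 9 rose and 0 fell by at least 2-fold. The counts below by GC content, protein type, finger number and chromosome include the 30 genes.

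**Figure D1:**
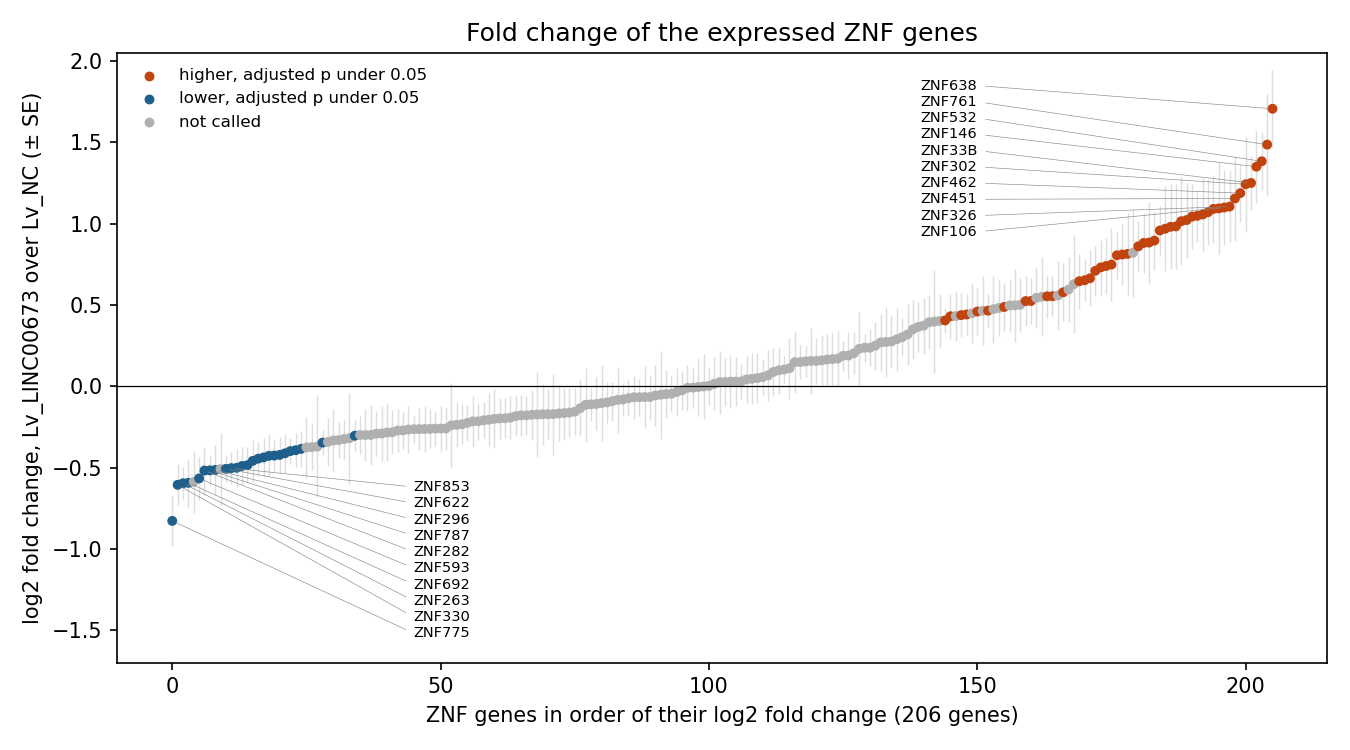
The 206 expressed ZNF genes in order of their log2 fold change, Lv_LINC00673 over Lv_NC, with bars of ± SE. The 48 genes called higher reach 1.71 at ZNF638 and the 25 called lower reach -0.83 at ZNF775, while 133 grey points did not pass an adjusted p of 0.05.

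The genes that rose most were led by ZNF638, a nuclear RNA- and DNA-binding protein known for silencing unintegrated retroviral DNA together with the HUSH complex. ZNF638 (chromosome 2, 71331782 to 71435061, RefSeq GRCh38.p14) stood at 27.5, 39.3 and 34.1 CPM in the Lv_LINC00673 libraries (in the order 1, 2, 3, as below) and at 13.9, 7.55 and 9.41 CPM in those of Lv_NC. Its groups lay far apart, with the lowest Lv_LINC00673 library above the highest Lv_NC library. The fold change was 3.26 (95% interval 2.25 to 4.74; log2 1.71, SE 0.24, edgeR adjusted p = 0.0044). ZNF761, a KRAB-ZNF gene of chromosome 19 (53431984 to 53458261), was at 5.70, 8.38 and 5.47 CPM against 1.33, 2.78 and 2.87 CPM. Its log2 fold change was 1.49 (SE 0.31, edgeR adjusted p = 0.0115), but the table also holds a readthrough row that joins ZNF761 to a neighbour, so how reads were divided is uncertain. ZNF532, which works in a complex with the chromatin reader ZMYND8, rose from 19.2 ± 3.74 to 50.2 ± 8.87 CPM (SD, n = 3; log2 fold change 1.38, SE 0.18, edgeR adjusted p = 0.00399). In single libraries ZNF532 was at 44.1, 60.4 and 46.1 CPM against 22.3, 15.1 and 20.3 CPM, again with library 2 of each group the farthest apart. ZNF146, a protein made almost wholly of fingers, rose from 14.4 ± 3.74 to 36.7 ± 7.31 CPM (log2 fold change 1.35). The KRAB-ZNF genes ZNF33B and ZNF302 rose from 5.82 ± 0.726 to 13.9 ± 1.62 CPM (1.25) and from 3.35 ± 1.44 to 7.94 ± 1.33 CPM (1.24).

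The next genes were of several kinds. ZNF462, a large chromatin-associated protein with 33 finger matches, the most of any of the 206, rose from 13.3 ± 2.11 to 30.2 ± 5.58 CPM (log2 fold change 1.19). ZNF451, a SUMO ligase, rose from 10.6 ± 3.14 to 23.6 ± 5.99 CPM (1.16), ZNF326, which links elongation to splicing in the DBIRD complex, from 9.24 ± 2.44 to 19.9 ± 2.88 CPM (1.11), and the RNA-binding ZNF106 from 23.9 ± 7.42 to 51.2 ± 11.1 CPM (1.10). ZNF638, ZNF761, ZNF532, ZNF146, ZNF33B, ZNF462 and ZNF326 kept their calls whichever library was left out. ZNF302 lost its call without Lv_LINC00673 library 2 or 3 or Lv_NC library 3 (edgeR adjusted p = 0.0624, 0.054 and 0.0666), as did ZNF451 (0.058, 0.058 and 0.0571), and ZNF106 lost it without Lv_NC library 3 (0.054).

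The genes that fell changed by smaller amounts. ZNF775 (chromosome 7, 150379330 to 150398630) was at 4.00, 3.59 and 3.67 CPM in Lv_LINC00673 and at 6.28, 7.28 and 6.43 CPM in Lv_NC. These groups were separate and each was tight (log2 fold change -0.83, SE 0.16, edgeR adjusted p = 0.00856). ZNF330, a cysteine-rich nucleolar protein with no classical finger match (chromosome 4, 141220535 to 141234697), was at 21.5, 25.2 and 22.4 CPM against 39.6, 33.5 and 32.1 CPM (log2 fold change -0.61, SE 0.13, edgeR adjusted p = 0.011). ZNF263, a factor with SCAN and KRAB domains, fell from 65.2 ± 2.02 to 43.1 ± 3.80 CPM (log2 fold change -0.60). All 3 kept their calls whichever library was left out, as did ZNF787 (98.3 ± 5.95 to 68.7 ± 5.55 CPM, log2 fold change -0.52), ZNF622 (108 ± 4.15 to 76.0 ± 2.40 CPM, -0.51) and ZNF853 (91.7 ± 5.69 to 64.7 ± 5.66 CPM, -0.50). ZNF692 fell from 26.8 ± 4.06 to 17.8 ± 1.82 CPM (-0.59), ZNF593 from 46.3 ± 5.80 to 31.3 ± 3.80 CPM (-0.57), ZNF282 from 39.98 ± 6.57 to 27.9 ± 3.25 CPM (-0.52) and ZNF296 from 12 ± 1.53 to 8.41 ± 0.715 CPM (-0.52). These 4 calls were lost without library 2 or 3 of either group, except that ZNF692 still passed without Lv_NC library 3, at edgeR adjusted p from 0.0604 to 0.071 for ZNF692, 0.0525 to 0.0712 for ZNF593, 0.0911 to 0.108 for ZNF282 and 0.105 to 0.144 for ZNF296.

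**Figure D2:**
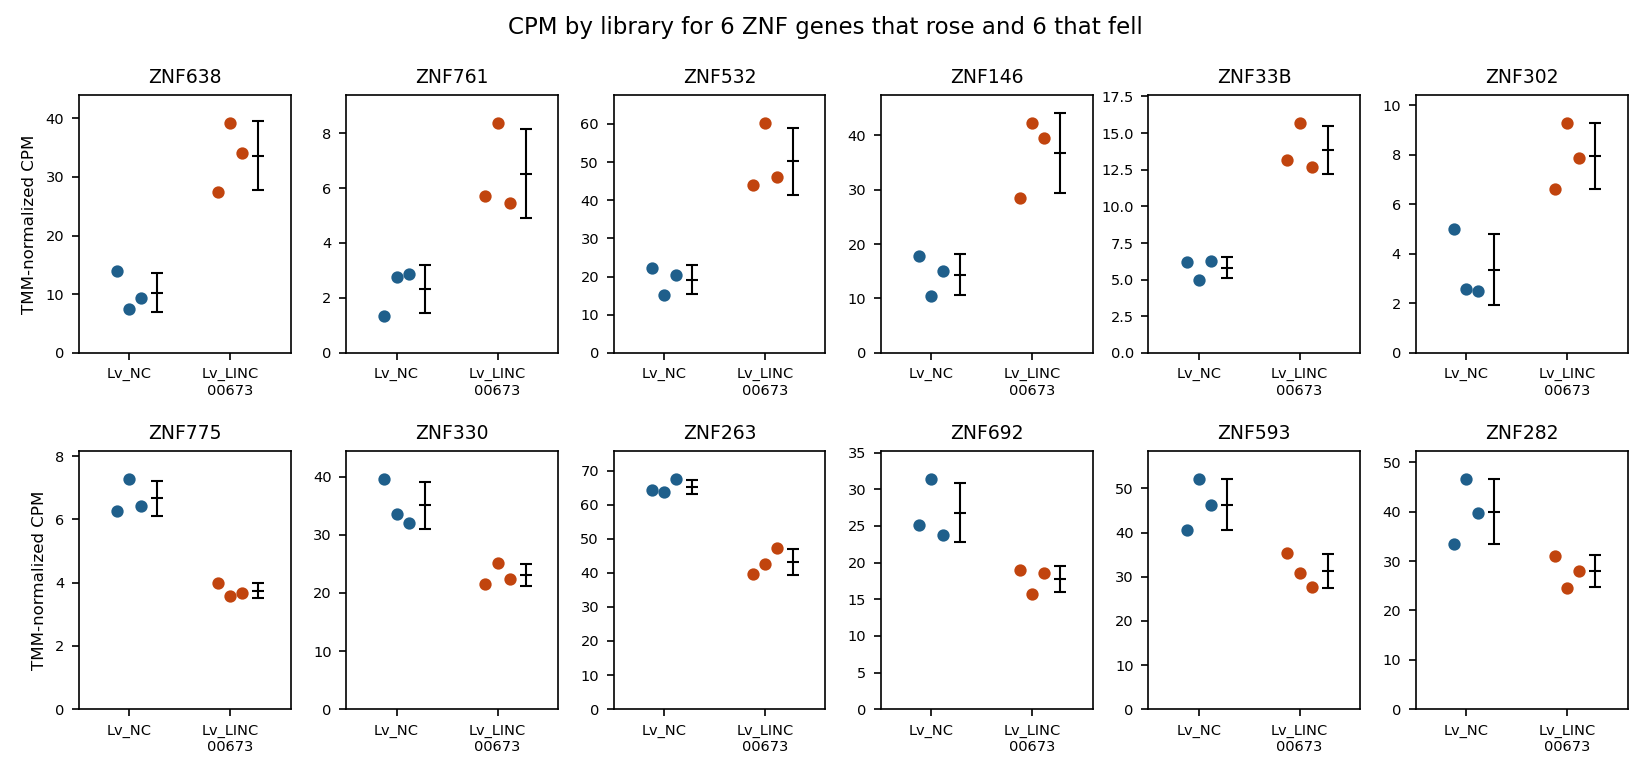
TMM-normalized CPM in each library for 6 ZNF genes that rose and 6 that fell, with the mean ± SD (n = 3) beside the points. In all 12 panels the 3 Lv_LINC00673 points lie on one side of the 3 Lv_NC points, as the rule for naming these genes required.

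In the called genes the size of the change varied between libraries in a shared way. Over the 48 genes called higher, the median deviation from the gene's mean over all libraries on the log2(CPM + 0.5) scale was 0.27 in Lv_LINC00673 library 1, 0.67 in its library 2 and 0.37 in its library 3. For Lv_NC the same values were -0.20, -0.62 and -0.40. In these called genes library 1 of each group was thus the nearest to the middle and library 2 the farthest. The 25 genes called lower gave -0.11, -0.29 and -0.25 against 0.15, 0.29 and 0.25, the same order in mirror image.

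Fold changes of the ZNF genes followed the base composition and length of their transcripts. Across 205 ZNF genes, which share the same 6 libraries, Spearman's rho of the log2 fold change was -0.62 with GC content and 0.46 with transcript length. It was -0.46 and 0.39 across 10486 genes at the same FPKM. The ZNF genes were divided by GC content into 3 classes of near equal size. In the class of lowest GC content (up to 45.7%), 35 rose and 2 fell of 69 (median log2 fold change 0.50). In the middle class 12 rose and 4 fell of 67 (median 0.03), and in the highest class (above 55.3%) 1 rose and 19 fell of 69 (median -0.24). Genes at large in the same GC ranges and at the same FPKM showed the same order, with 1168 rising and 281 falling of 3452 (median 0.31), 402 and 918 of 3454 (-0.17) and 53 and 1124 of 3580 (-0.27). ZNF839 was the 1 gene of the highest class that rose, and ZNF330 and ZNF706 were the 2 of the lowest class that fell. ZNF839 (log2 fold change 0.52) was no longer called in any of the 6 fits that left out 1 library (edgeR adjusted p from 0.0576 to 0.095). ZNF839 was named after its values were seen. ZNF706 is on the list of genes with a described role read below, but was picked out here after its values were seen.

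A second fit removed, within each library, the smooth dependence of counts on GC content and length (below, the offset). With it 83 ZNF genes passed, 59 higher and 24 lower, which is 40.5% of 205, beside 31.2% of all 16191 genes in that fit and 37.5% of those at the same FPKM. The median log2 fold change was 0.14 for the ZNF genes, 0.13 for all genes in that fit and 0.04 for those at the same FPKM. Of the genes at that FPKM 20.8% were higher and 16.7% lower with the offset. Of the 48 genes called higher without the offset 36 were called higher with it, and of the 25 called lower 13 were called lower with it. In the GC classes the counts became 25 higher and 9 lower, 20 and 5, and 14 and 10, with medians of 0.24, 0.15 and 0.05, and rho with GC content became -0.16 and with length 0.00.

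Single genes moved by different amounts with the offset. ZNF638 went to a log2 fold change of 1.10, ZNF532 to 1.10, ZNF761 to 1.03, ZNF146 to 1.02, ZNF302 to 0.92, ZNF462 to 0.82 and ZNF33B to 0.66, and all of these stayed past the threshold. ZNF106 went to 0.57 and ZNF451 to 0.40 and still passed, while ZNF326 went to 0.35 and did not (edgeR adjusted p = 0.0787). Among the genes that fell, ZNF775 went to -0.56, ZNF263 to -0.35, ZNF853 to -0.29, ZNF282 to -0.28 and ZNF787 to -0.23 and still passed. ZNF330 and ZNF706, a small protein with 1 finger match, had larger falls with the offset, -0.74 against -0.61 and -0.78 against -0.43. ZNF692, ZNF593, ZNF296 and ZNF622 lost their calls (log2 fold changes -0.15, -0.01, -0.16 and -0.09; edgeR adjusted p = 0.292, 0.961, 0.369 and 0.451). ZNF207, which carries the checkpoint protein BUB3 to kinetochores, was called in opposite directions, at 0.44 without the offset (edgeR adjusted p = 0.0345) and -0.43 with it (edgeR adjusted p = 0.00432). The first call was lost without library 2 or 3 of either group (edgeR adjusted p from 0.0816 to 0.121). Whether the dependence on GC content and length is technical or part of the response cannot be told apart from these libraries.

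**Figure D3:**
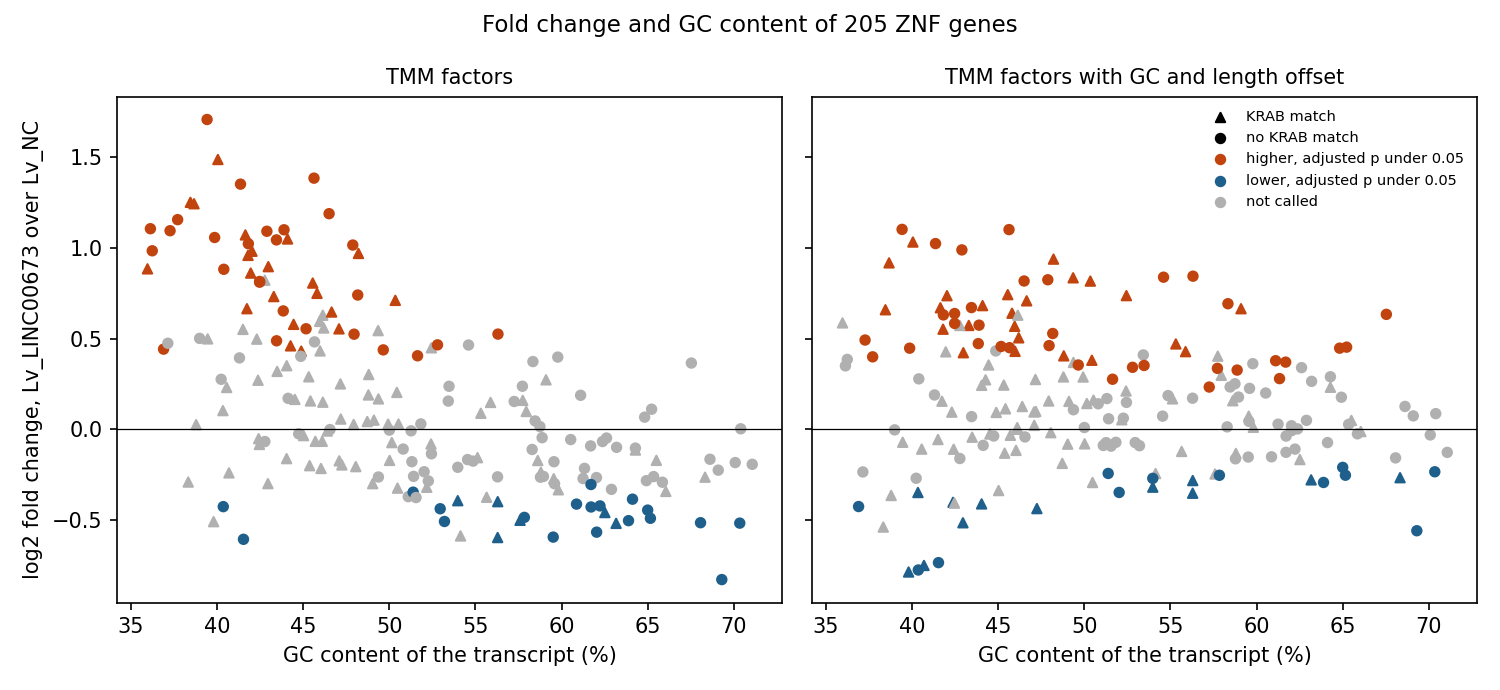
Log2 fold change of 205 ZNF genes against the GC content of the transcript (%), without (left) and with (right) the GC and length offset; triangles have a KRAB match and circles do not. On the left the called genes slope from up to 1.71 at low GC to -0.83 at high GC (rho -0.62), and on the right this slope is flatter (rho -0.16).

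By protein type, 96 of the ZNF genes had a KRAB match in their translated coding sequence and 109 did not. Genes with the match had a lower median level (2.64 against 6.08 FPKM) and lower median GC content (46.5 against 53.5%). Of the 96, 21 rose and 6 fell (28.1% called, median log2 fold change 0.10). Of the 109, 27 rose and 19 fell (42.2% called, median -0.05). The share called was 26.8% of all genes and 35.6% of those at the same FPKM. With the offset the counts for the 2 types were 24 and 12 (median 0.12) and 35 and 12 (median 0.15). Within the lowest GC class 16 of 39 genes with the match rose and 0 fell, and 19 of 30 without it rose and 2 fell. At an unadjusted p 1 of the 39 fell, DESeq2 called 0 lower, and with the offset 10 rose and 6 fell. In the highest GC class 0 of 19 genes with the match rose and 5 fell, and 1 of 50 without it rose and 14 fell, where the offset gave 3 and 4, and 11 and 6. The 0 of 19 was the same at an unadjusted p and in DESeq2. No difference between the 2 types was tested.

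The number of fingers ranged up to 33 with a median of 9. Of 59 genes with 1 to 5 fingers 13 rose and 8 fell (35.6% called). Of 97 with 6 to 12 fingers 20 rose and 10 fell (30.9%). Of 44 with over 12 fingers 14 rose and 4 fell (40.9%). The share called was 26.8% of all genes and 35.6% of those at the same FPKM. With the offset the counts were 18 higher and 8 lower, 26 and 7, and 14 and 6, in the same order. The median log2 fold changes were -0.08, 0.03 and 0.24, or 0.18, 0.09 and 0.13 with the offset. The median GC content was 52.5%, 49.4% and 46.5%. No difference between these classes was tested. The 5 genes with no classical finger match were ZNF185, ZNF330, ZNF503, ZNF703 and ZNF839, of which 3 fell and 1 rose. ZNF703, a corepressor of the NET family, fell from 112 ± 13.2 to 79.5 ± 8.38 CPM (log2 fold change -0.49), and ZNF185 from 302 ± 8 to 238 ± 10.9 CPM (-0.35). Both calls were lost in 3 fits that left out 1 library (edgeR adjusted p from 0.065 to 0.0755 for ZNF703 and from 0.0507 to 0.0574 for ZNF185, without Lv_LINC00673 library 2 or 3 in both cases, Lv_NC library 3 for ZNF703 and Lv_NC library 2 for ZNF185).

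The ZNF genes lay on 21 chromosomes, 74 of them on chromosome 19. Of those 74, 16 rose and 5 fell (28.4% called, median log2 fold change 0.03). Of the 132 elsewhere, 32 rose and 20 fell (39.4% called, median -0.01). With the offset the counts were 19 and 7 on chromosome 19 (median 0.13) and 40 and 17 elsewhere (0.14). Members were joined into runs where neighbours lay within 500 kb. Of all genes at the same FPKM 14.3% rose and 21.2% fell, or 20.8% and 16.7% with the offset. No run was tested against these shares. The longest run, at the distal end of chromosome 19 (57191500 to 58489533), held 29 genes, 26 of them with a KRAB match, of which 5 rose and 0 fell (median 0.09). With the offset 4 rose, of the 5 only ZNF304 and ZNF417, with ZNF544 and ZNF584, and 2 fell, ZNF264 and ZNF419. Without it the 5 were ZNF304, ZNF551, ZNF776, ZNF587 and ZNF417. ZNF776 kept its call whichever library was left out, and ZNF304 and ZNF551 lost theirs without library 2 or 3 of either group (edgeR adjusted p from 0.0517 to 0.158), as did ZNF304 without Lv_LINC00673 library 1 (0.0627). ZNF417 was at 9.27, 10.4 and 10.8 CPM against 5.58, 5.67 and 6.14 CPM (log2 fold change 0.81, SE 0.15, edgeR adjusted p = 0.00765; 0.74 with the offset) and kept its call whichever library was left out. ZNF587, a close relative of ZNF417 known to silence retroelements, was at 27.7, 31.0 and 30.9 CPM against 22.6, 18.6 and 25.3 CPM (0.43, edgeR adjusted p = 0.0495). Its call was lost whichever library was left out (edgeR adjusted p from 0.0543 to 0.155) and with the offset (0.09, adjusted p = 0.547). Reads of these 2 similar genes could be divided between them, which makes both uncertain.

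Other runs of chromosome 19 differed from this in their counts. In a run of 4 KRAB-ZNF genes (52859491 to 53580269) ZNF320, ZNF160 and ZNF761 rose (median 0.87, or 0.41 with the offset, where ZNF160 and ZNF761 still passed). ZNF160 was at 8.21, 11.5 and 11.4 CPM against 5.32, 3.99 and 5.50 CPM, with no overlap (log2 fold change 1.07; 0.67 with the offset). In a run of 5 (8509678 to 9584504) ZNF558, ZNF317 and ZNF121 rose (median 0.71). With the offset ZNF558, ZNF317 and ZNF266 rose (median 0.42) and ZNF121 did not pass (0.28, edgeR adjusted p = 0.0805). A run of 10 at 43596392 to 44237268, 8 of them with a KRAB match, had 2 that rose, ZNF404 and ZNF227, and 0 that fell (median -0.06). With the offset 3 of these 10 rose, ZNF428, ZNF45 and ZNF227, and ZNF226 fell (-0.75, edgeR adjusted p = 0.0112; median -0.05). By contrast, in a run of 10 (55476617 to 56624486) with 1 KRAB match, 0 rose and 2 fell, ZNF787 and ZNF71 (median -0.24; with the offset 2 rose and 2 fell, median 0.11). The median GC content was 41.7%, 46.0%, 42.9% and 65.4% in these 4 runs in turn, and 46.1% in the run of 29. On chromosome 16 a run of 11 ZNF genes (30378312 to 31084196, median GC content 58.6%) had 0 called either way in edgeR without the offset (0 higher and 4 lower at an unadjusted p; 0 and 2 in DESeq2) and 3 higher and 0 lower with it. The other counts of 0 in these chromosome 19 runs were also 0 at an unadjusted p and in DESeq2. Without some 1 library the calls of ZNF320 (edgeR adjusted p up to 0.0903), ZNF404 (up to 0.118), ZNF227 (up to 0.0638) and ZNF71 (up to 0.0823) were lost, in each case including the fits without Lv_LINC00673 library 2 or 3. That of ZNF317 was lost without Lv_LINC00673 library 2 (0.0528) and that of ZNF558 without Lv_NC library 3 (0.0501), while ZNF160 and ZNF121 kept theirs. Of the genes named by run, ZNF761, ZNF787, ZNF587, ZNF428 and ZNF264 came from the rule for named genes, and the others were chosen after their values were seen.

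**Figure D4:**
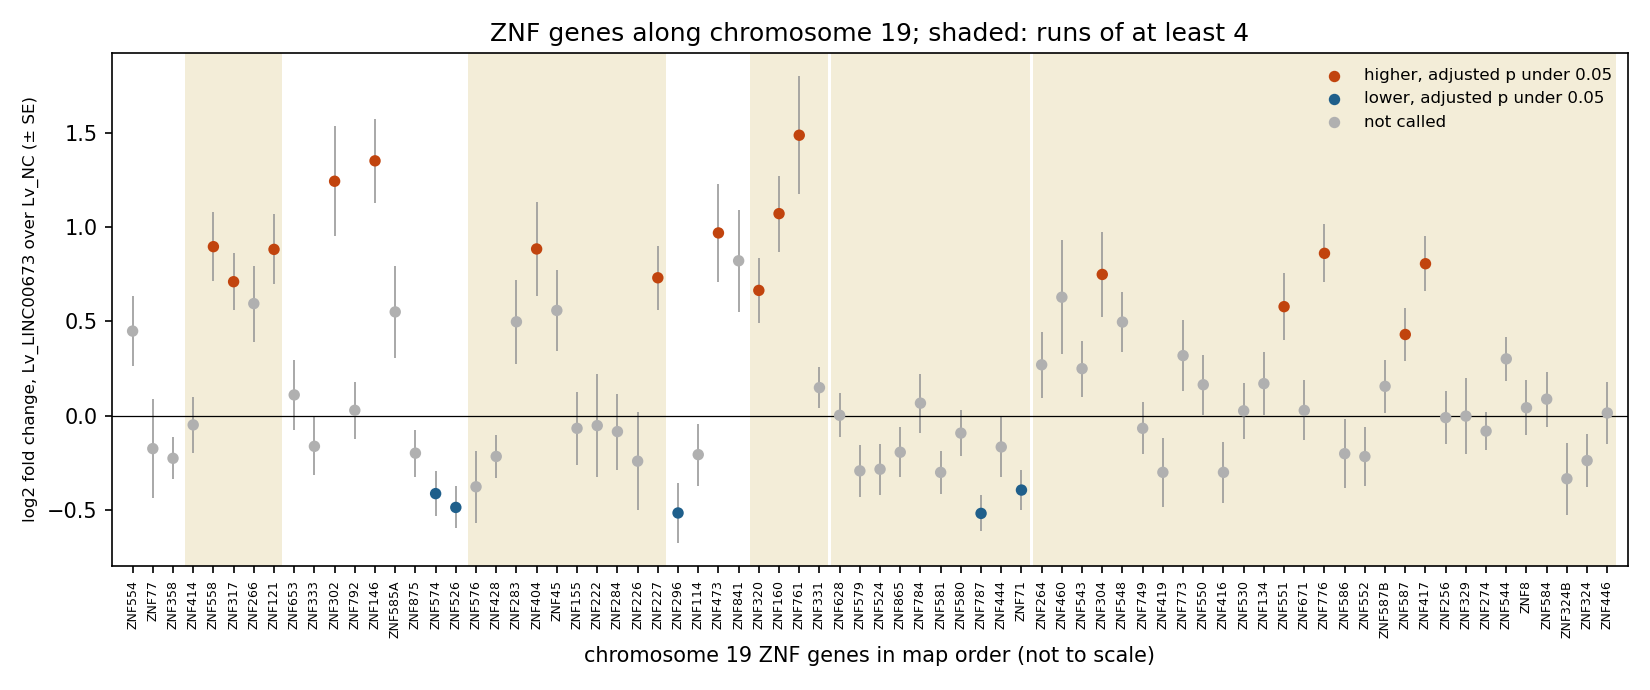
Log2 fold change (± SE) of the chromosome 19 ZNF genes in map order, with runs of at least 4 genes shaded. The run from ZNF320 to ZNF331 has 3 of 4 genes called higher, the run from ZNF628 to ZNF71 has 2 of 10 called lower, and the run from ZNF264 to ZNF446 has 5 of 29 called higher.

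Genes with a well described role were read as a list of 36, of which 17 rose and 5 fell (15 and 4 with the offset). That is 61.1% called, beside 26.8% of all genes and 35.6% at the same FPKM, and the list was not drawn up independently of these data. ZNF644 and ZNF518B, both partners of the G9a methyltransferase, rose from 5.22 ± 1.68 to 11.1 ± 3.00 CPM (log2 fold change 1.09; 0.49 with the offset) and from 9.98 ± 2.42 to 20.8 ± 4.74 CPM (1.06; 0.45). ZNF827, which brings the NuRD complex to telomeres kept by recombination, as those of U2OS are, rose from 9.03 ± 3.54 to 18.3 ± 1.62 CPM (1.02; 0.82). ZNF217, an oncoprotein that binds CtBP corepressors, was at 29.2, 43.0 and 32.9 CPM against 20.2, 13.1 and 17.8 CPM (1.04; 0.67), and ZNF281, a factor of stem cells and of epithelial-mesenchymal transition, at 17.4, 23.3 and 19.98 CPM against 13.5, 7.33 and 9.09 CPM (1.02; 0.63). In each of these the groups did not overlap. ZNF217 kept its call whichever library was left out. The call of ZNF518B was lost without Lv_NC library 3 (edgeR adjusted p = 0.0524), and that of ZNF281 without Lv_LINC00673 library 2 or Lv_NC library 3 (0.0569 and 0.0631). ZNF644 lost it without library 2 or 3 of either group (edgeR adjusted p from 0.0554 to 0.087) and ZNF827 without Lv_LINC00673 library 2 or 3 or Lv_NC library 3 (0.0784, 0.0838 and 0.0822).

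Smaller rises were measured in other genes of that list. ZNF609, which works with the cohesin loader NIPBL, was at 134 to 143 CPM in Lv_LINC00673 and at 101 to 106 CPM in Lv_NC (log2 fold change 0.40, SE 0.08, edgeR adjusted p = 0.00919; 0.28 with the offset), and kept its call whichever library was left out. ZNF143, a promoter-bound activator, went from 4.27 ± 1.24 to 7.52 ± 1.63 CPM (0.81), but passed in 1 of the 6 fits without a library, that without Lv_NC library 1 (in the others edgeR adjusted p = 0.06 to 0.153). ZNF131 went from 11.5 ± 2.28 to 20.2 ± 3.45 CPM (0.81; lost without Lv_LINC00673 library 2 or Lv_NC library 3, edgeR adjusted p = 0.0645 and 0.0618). ZNF445, which protects imprinted DNA methylation, went from 28.6 ± 3.17 to 41.9 ± 5.12 CPM (0.55), lost its call without library 2 or 3 of either group (edgeR adjusted p from 0.0567 to 0.0723) and with the offset stood at 0.10 (adjusted p = 0.497). ZNF274, which brings TRIM28 and SETDB1 to the ends of other ZNF genes, was at 32.7, 30.8 and 32.6 CPM against 34.2, 32.0 and 35.5 CPM, with overlapping groups (log2 fold change -0.08, SE 0.10, edgeR adjusted p = 0.59). Its sign was the reverse, at 0.21 and not past the threshold, with the offset.

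Of the genes that fell, 3 encode the ribosome-linked proteins ZNF622, ZNF593 and ZNF598, the last at 189, 155 and 159 CPM against 215, 241 and 228 CPM (log2 fold change -0.45, SE 0.10, edgeR adjusted p = 0.0148). Without the offset the call of ZNF598 was lost without Lv_LINC00673 library 2 or 3 or Lv_NC library 3 (edgeR adjusted p = 0.0566, 0.0644 and 0.054). With the offset, in all 6 libraries, only ZNF598 of the 3 still passed (-0.21, edgeR adjusted p = 0.0183). ZNF706 was at 29.3, 29.1 and 29.5 CPM against 37.8, 39.2 and 41.3 CPM (-0.43, edgeR adjusted p = 0.0144), and lost its call without Lv_LINC00673 library 3 or Lv_NC library 3 (0.056 and 0.0617). ZNF395, induced by hypoxia, was at 268, 240 and 267 CPM against 217, 233 and 207 CPM and did not pass (0.24, edgeR adjusted p = 0.0738), although it did with the offset (0.35, adjusted p = 0.00245).

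Proteins that ZNF factors work with were read as a list of 36 genes, of which 14 rose and 1 fell. That is 41.7% called, beside the same 26.8% and 35.6%, and with the offset 12 rose and 4 fell of 35 (45.7%, beside 31.2% and 37.5%). TRIM28, the corepressor bound by KRAB domains, was at 601 ± 70.8 CPM in Lv_LINC00673 and 704 ± 54.5 CPM in Lv_NC and did not pass (log2 fold change -0.23, SE 0.10, edgeR adjusted p = 0.137; 0.07 with the offset). SETDB1, the methyltransferase recruited by TRIM28, rose from 24 ± 1.31 to 32.0 ± 2.52 CPM (0.42; 0.51 with the offset), but its call was lost whichever library was left out (edgeR adjusted p from 0.0521 to 0.115). ATF7IP, which stabilises SETDB1, rose from 3.10 ± 0.502 to 10.4 ± 2.99 CPM (1.74; 1.05 with the offset), and TRIM24, a relative of TRIM28, from 2.71 ± 0.731 to 8.71 ± 1.03 CPM (1.69; 1.13). ADNP, a zinc finger protein of the ChAHP silencing complex, rose from 29.5 ± 9.15 to 83.4 ± 5.72 CPM (1.5) and did not pass with the offset (0.86, edgeR adjusted p = 0.0983). SMARCAD1, a remodeller that binds TRIM28, rose from 5.81 ± 2.09 to 15.9 ± 3.32 CPM (1.45; 0.91). These last 4 kept their calls whichever library was left out. Of the HUSH complex, the silencing complex with which ZNF638 works, TASOR and MPHOSPH8 rose (0.71 and 0.88; 0.68 with the offset for MPHOSPH8, while TASOR had no GC value), MPHOSPH8 losing its call without any 1 of the Lv_LINC00673 libraries or Lv_NC library 3 (edgeR adjusted p from 0.0504 to 0.114). The complex's PPHLN1 did not pass (-0.13, edgeR adjusted p = 0.497), but with the offset it did (-0.42, adjusted p = 0.0057). ZMYND8, the partner of ZNF532, rose from 14.1 ± 1.99 to 36.5 ± 3.36 CPM (1.37; 1.30 with the offset). DNMT3A, a DNA methyltransferase, was the 1 gene of the list that fell, from 69.3 ± 4.23 to 53.8 ± 3.66 CPM (-0.37; -0.47 with the offset), and it lost its call without library 2 or 3 of either group (edgeR adjusted p from 0.0523 to 0.0867).

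The most similar genes were counted in the same way. Of 37 ZBTB, ZSCAN and ZKSCAN genes at the same FPKM, whose proteins also carry zinc fingers, 9 rose and 3 fell (32.4% called, median log2 fold change 0.05). The share called was 26.8% of all genes and 35.6% of those at the same FPKM. With the offset 6 of the 37 rose and 2 fell (21.6% called), beside 31.2% of all genes and 37.5% of those at the same FPKM. Of the 248 ZNF genes tested below 1.5 FPKM, 94 rose and 0 fell in edgeR, with a median of 0.76 and a median GC content of 41.5%. With the offset 64 of these rose and 0 fell (median 0.48). At an unadjusted p under 0.05, 0 fell too, and 0 fell in DESeq2. Falls were rare below 1.5 FPKM among all genes as well. Of the 2738 genes called lower 2618 lay at 1.5 FPKM or more, as did 1768 of the 3145 called higher and 12336 of the 21933 tested. Of the 303 ZNF genes below 1.5 FPKM these 248 passed the filter on low counts, which a gene can pass through the group where it is higher. No difference between these sets and the 206 genes was tested.

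The split of calls depended on how libraries were scaled. With library totals alone in place of TMM factors, 65 ZNF genes were called higher and 11 lower, so that 85.5% of calls were higher against 65.8%. Of all genes 18.5% were then called higher and 5.58% lower. Over all genes 76.8% of calls were higher with library totals and 53.5% with TMM factors. Scaling by library totals moved the median of all genes from 0.05 to 0.22 and that of the ZNF genes from 0.03 to 0.19. On deposited FPKM values (limma on log2(FPKM + 1)) 57 ZNF genes were higher and 8 lower, 87.7% of calls higher. Of all genes 16.1% were called higher and 5.56% lower on that scale, 74.3% of calls higher. All 48 genes called higher and 11 of the 25 called lower were called alike with library totals, and no called gene changed sign. Leaving out library 2 or 3 of Lv_LINC00673 lowered the count of called ZNF genes to 30 and 33, and leaving out library 2 or 3 of Lv_NC lowered it to 41 and 32. Of the 73 called genes 25 passed in all 6 such fits, 18 higher and 7 lower, and 0 changed sign in any.

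**Figure D5:**
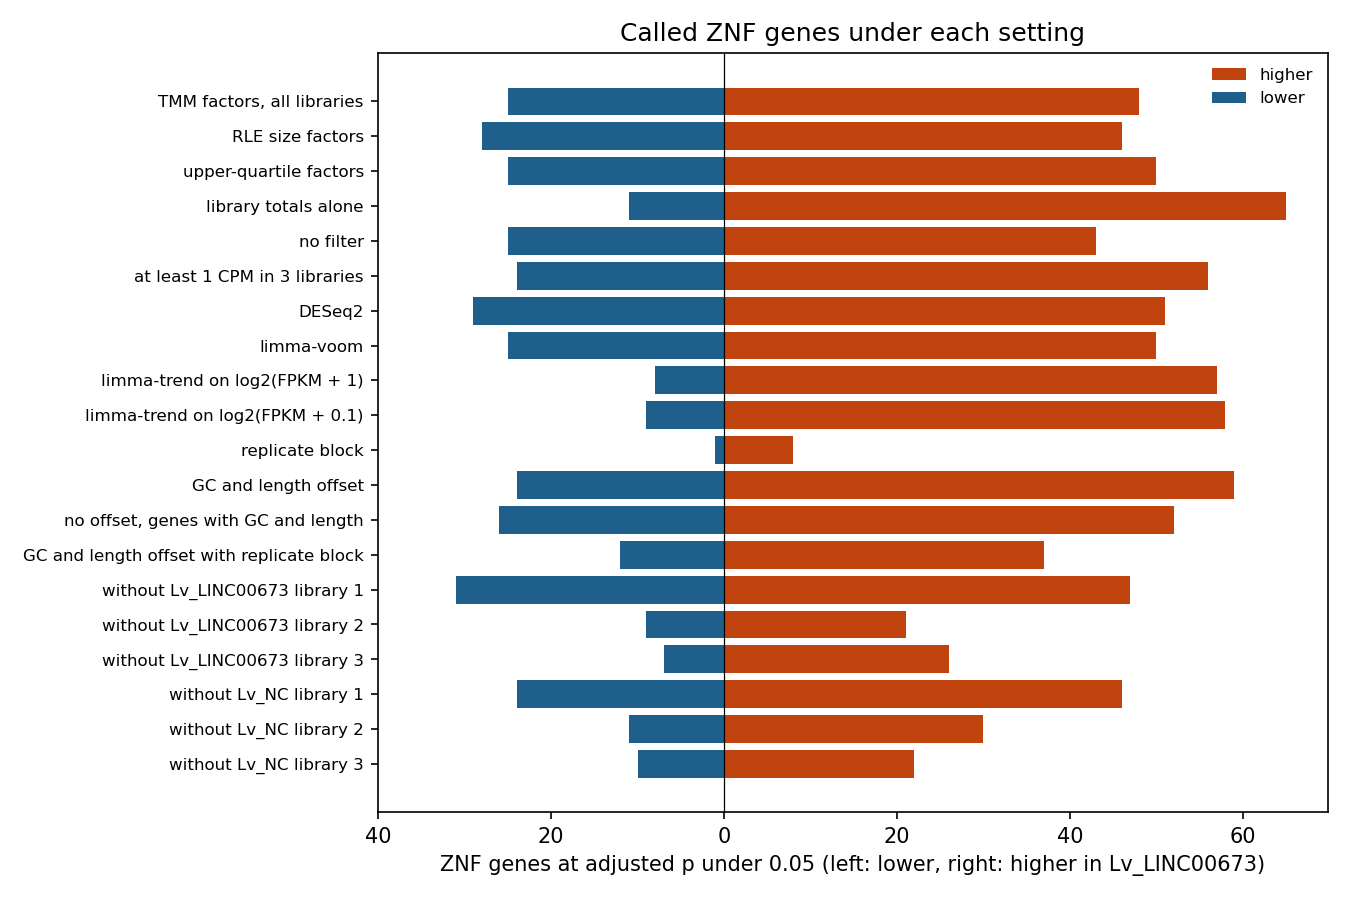
Number of the 206 ZNF genes called higher (right) and lower (left) in Lv_LINC00673 at an adjusted p under 0.05, 1 bar per scaling, filter, test or left-out library. TMM factors give 48 and 25, library totals 65 and 11, and the GC and length offset 59 and 24.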

How the data were processed

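Libraries of 6 U2OS samples were made from total RNA by TruSeq chemistry, per the labels' protocols. Raw counts of reads per gene and FPKM values per gene were deposited by the authors as 2 tables with 1 column per library. The genome build was hg38, per the submitters' processing notes. For the aligner, counter, annotation, FPKM length model and strand setting nothing is stated in the labels or file headers. The counting of reads shared by similar, overlapping or antisense genes is therefore unknown: 3 of the 206 ZNF genes have numbered copy rows, 5 have readthrough rows and 19 have antisense or divergent rows.

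Groups come from the library titles. Low counts were removed by filterByExpr, and all 6 libraries entered 1 fit with TMM factors in edgeR 4.0.16 (quasi-likelihood test, robust settings, two-sided; R 4.3.3), and p-values were adjusted by Benjamini-Hochberg over 21933 genes. The SE was taken from the log2 fold change and the F statistic. The script was tested on simulated data. GC content and length come from the longest coding transcript of GENCODE release 29 (205 of 206 genes), since the RefSeq table gives no GC content, and the offset is a spline fit per library. KRAB and finger matches were found in translated coding sequences of the same release. The KRAB match is the best over all coding transcripts of a gene, and fingers were counted in its longest translated sequence. These need not be the transcript that gave GC content and length. A KRAB match is at least 13 of 19 positions of the A box, and a finger is the spacing of its cysteines and histidines. Of the matches 90 reached 16 positions. Coordinates and promoters are RefSeq's, GRCh38.p14.

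The set of genes, the role, partner and marker lists and the rule for named genes were chosen with earlier results of these data known. The rule named the 8 genes of highest FPKM, the 10 highest and 10 lowest fold changes among called genes with no overlap between groups, the role list, the 3 genes on either side of the level of 1.5 FPKM, genes called in opposite directions with the offset, and the called partner genes of largest change. Other names were chosen after their values were seen. Alternatives were other factors (RLE, upper-quartile or none, that is library totals), no filter or at least 1 CPM in 3 libraries, DESeq2 1.42.0, limma 3.58.1 (voom, and trend on log2 FPKM with pseudocounts of 1 and 0.1), the offset, a replicate block, other FPKM levels and leaving out each library.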

Additional observations from a re-analysis of the deposited data

How the results depend on the processing

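Among the 88 called genes followed singly (the 73 ZNF genes and 15 partner genes), 0 changed sign with RLE or upper-quartile factors, no filter, a filter of 1 CPM, DESeq2, limma-voom or a left-out library. With the GC and length offset 1 did, ZNF207 (-0.43, and -0.43 with the offset and replicate block together). Of the uncalled genes followed, ZNF264 (-0.40; -0.39 with the block), ZNF283 (-0.0717; -0.0804), ZNF428 (0.28; 0.28) and ZNF655 (-0.35; -0.35) changed sign with the offset, and ZNF274 was at 0.21 (0.21 with the block), 0.0835 with library totals, 0.0479 on log2(FPKM + 1) and 0.0519 on log2(FPKM + 0.1).

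Lower calls among ZNF genes were 11 with library totals, 8 on log2(FPKM + 1) and 9 on log2(FPKM + 0.1). At 3 FPKM or more, 42 of 124 ZNF genes were called, 18 higher, and at 1.5 FPKM in each group 27 of 176 were called higher. The median log2 fold change of the ZNF genes was -0.00075 with RLE factors, 0.012 with upper-quartile factors, 0.19 with library totals, 0.011 with no filter, 0.062 with the filter of 1 CPM, -0.012 in DESeq2, 0.013 in limma-voom, 0.13 on log2(FPKM + 1), 0.16 on log2(FPKM + 0.1), 0.14 with the offset and 0.13 with the offset and block.

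Leaving out each library in turn gave 2716 to 6490 genes called, 30 to 78 ZNF genes (21 to 47 higher, 7 to 31 lower), 11 to 30 with a KRAB match and 19 to 48 without, 8 to 25 on chromosome 19 and 22 to 53 elsewhere, 10 to 22 partner genes, 3 to 16 ZBTB, ZSCAN and ZKSCAN genes, 35 to 99 ZNF genes below 1.5 FPKM, and medians from -0.016 to 0.048. The cause of these shifts was not tested.

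The titles do not say whether replicate numbers pair the libraries. Same-numbered libraries had correlations of deviations of -0.1225, -0.1104 and 7e-04 over 21933 genes. Differently numbered ones had correlations from -0.0251 to 0.1322. With 3 libraries per group these values cannot decide whether the numbers mark pairs. A replicate block gave 1208 genes called, 9 ZNF genes (8 higher, 1 lower), 5 with and 4 without a KRAB match, 2 on chromosome 19 and 7 elsewhere, 4 partner genes, 4 ZBTB, ZSCAN and ZKSCAN genes and 24 ZNF genes below the level. With the offset and block together 3432 genes, 12 lower ZNF genes, 27 without a KRAB match, 6 ZBTB, ZSCAN and ZKSCAN genes and 43 ZNF genes below the level were called. Every ZNF gene above the level had 103 or more counts in each library, and the 3 libraries per group limit the precision.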
